A study of Mus musculus with 4 samples.

Results

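The integrins, tetraspanins and adhesion machinery examined here are 36 listed genes. The rule picks them by name and uses no measured value, but the list was drawn up with earlier results of these data known, so its share of calls is a description. Of these, 34 were among the 18364 genes of the deposited table. They comprised 15 integrin alpha subunits, 6 integrin beta subunits, 6 other surface adhesion molecules, 4 tetraspanins and 3 intracellular linkers. Itgad and Itgb8 were not analysed here. Resident large peritoneal macrophages (LPMs) from the peritoneal cavity of C57BL/6 mice aged 8 weeks were used for bulk RNA sequencing, to ask what changes when the nuclear receptor RXRα is deleted in myeloid cells. The Rxra-KO group, 2 libraries, came from LysM Cre+ Rxra fl/fl mice, in which Cre recombinase expressed from the lysozyme M locus acts in macrophages and in other myeloid cells such as neutrophils. The WT group, also 2 libraries, is labelled wild type, and the study describes its controls as Rxra fl/fl littermates without Cre. Both groups were taken through the same double sort as F4/80+ MHCII- CD102+ cells. The labels and methods do not say how many mice gave each of these libraries, so the spread between them may be technical. The p-values and SEs below rest mostly on a spread shared across all genes, and only in small part on that of each gene.

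Integrins are heterodimers of an alpha and a beta subunit that bind matrix proteins or counter-receptors on other cells, and the pair decides the ligand. Their cytoplasmic tails are activated by talin and the kindlins, and vinculin reinforces the link to actin. Tetraspanins organise integrins and other receptors into membrane microdomains. In peritoneal macrophages the Itgam-Itgb2 pair, CD11b/CD18 or Mac-1, is the best known integrin and serves as a sorting marker, and macrophages of serous cavities use adhesion molecules when they aggregate or settle on mesothelium.

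Transcripts of 3 integrin subunits were lower in the Rxra-KO libraries than in WT. Itga6, Itgam and Itgb7 passed the test, at 4.33-fold, 2.36-fold and 3.93-fold below WT. No member was called higher. The other surface adhesion molecules, the tetraspanins and the linkers had no called gene. Calls required a limma adjusted p below 0.05 together with a log2 fold change beyond 0.6 in either direction. Folds are on the log2(value + 1) scale, where the value is the deposited normalised read count.

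The promoters of 2 of the called genes are printed because they are the regulatory sequence nearest to these changes, and that of Cd81 because it was the tetraspanin with the lowest p and had a positive difference. Each run is the 5′ to 3′ transcript strand from 250 bases before to 50 bases after the start site, from RefSeq on GRCm38.p6. Capitals mark GAGGAA, or TTCCTC where the match is on the opposite strand, the core of the motif bound by PU.1, the lineage factor of macrophages.
Itgam (chr7:128062390-128062689, plus strand): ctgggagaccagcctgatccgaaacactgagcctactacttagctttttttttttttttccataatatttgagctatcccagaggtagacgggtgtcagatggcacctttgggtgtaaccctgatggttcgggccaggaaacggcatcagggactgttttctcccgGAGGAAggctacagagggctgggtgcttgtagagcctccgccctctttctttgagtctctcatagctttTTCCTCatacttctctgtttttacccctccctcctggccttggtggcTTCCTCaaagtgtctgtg
Itgb7 (chr15:102231886-102232185, minus strand): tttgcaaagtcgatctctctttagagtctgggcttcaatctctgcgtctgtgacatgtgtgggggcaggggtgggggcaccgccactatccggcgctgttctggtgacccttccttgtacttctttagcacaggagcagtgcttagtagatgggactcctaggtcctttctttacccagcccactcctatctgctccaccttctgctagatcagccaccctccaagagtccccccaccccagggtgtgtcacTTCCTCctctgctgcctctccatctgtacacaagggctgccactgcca
Cd81 (chr7:143052500-143052799, plus strand): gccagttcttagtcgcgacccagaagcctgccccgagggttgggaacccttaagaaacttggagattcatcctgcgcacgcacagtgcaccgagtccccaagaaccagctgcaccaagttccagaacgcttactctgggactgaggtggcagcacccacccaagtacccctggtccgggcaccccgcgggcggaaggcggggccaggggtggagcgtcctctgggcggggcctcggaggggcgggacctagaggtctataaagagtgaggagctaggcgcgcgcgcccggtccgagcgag
The Itgam window held 3 matches, at -84 on the transcript strand and at -15 and 32 on the other strand, counted from the start site. The Itgb7 window held 1, at 2 on the other strand, and the Cd81 window held none. RefSeq windows were given for 24 of the 34 members, 30 windows in all, and Itga6 was not among them. GAGGAA on either strand was in 10 of the 30 member windows, against 28.3% of 32851 windows of the same length for all genes. AGGTCA, the hexamer bound by RXR and its partner receptors, was in 2 of the 30 windows, both of Cd151, against 16.3% of all windows. AGATAA, bound by factors such as GATA6 of LPMs, was in 2 of the 30 windows, those of Cd44 and Itgax, against 11.2%. No motif here holds another, and a match describes letters in the window and not binding.

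WT libraries held 652542 and 947372 reads, Rxra-KO libraries 629030 and 1047021. The table lets whole reads be recovered, and they are given as counts below. A value of 3 reads, taken as the floor, corresponds to 2.98 to 4.54 depending on the library. Rxra itself had higher values in both libraries that carry the Rxra-KO label, a difference that missed the threshold. Its 20 and 28 WT reads stood against 33 and 77 Rxra-KO reads. The difference was 0.99 ± 0.36 on the log2 scale (SE, n = 2 per group, limma adjusted p = 0.183). The gene-level value does not separate the floxed exon from the rest of the transcript, so neither direction of this value checks the deletion, and directions below refer to the libraries by their labels. The marker lists moved in the same libraries. They were drawn up with earlier results of these data known and hold genes the study reported as changed here. Their shares of calls are therefore descriptions. Of 15 LPM markers 11 were called lower, against 0.969% of all genes. The 4 not called were Cd14, Csf1r, Vsig4 and Timd4, with log2 fold changes of 0.59, 0.36, 0.12 and -0.80. For Cd14 and Csf1r both Rxra-KO libraries lay above both WT libraries. Summed values of the 15 were 53682 and 52036 in WT against 26270 and 28415 in Rxra-KO. The largest values in these sums were those of Prg4, at 28429 and 29683 against 15129 and 16567, and Lyz2. Lyz2 had 14263 and 11591 against 6386 and 6230. It is the lysozyme M gene, whose locus carries Cre in Rxra-KO, so its difference cannot be told apart from an effect of the Cre allele. Of 15 small peritoneal and monocyte-derived markers 12 were called higher, against 1.32% of all genes. Sums of the 15 were 622 and 178 against 7931 and 8551, and Cd209d and Clec4b1 of this list were at 0 in both WT libraries. The 3 not called were Ly6c2, Cx3cr1 and Cd226, with log2 fold changes of -0.78, -0.30 and 0.60. Ly6c2 had 5 and 0 reads in WT against 1 and 0, Cx3cr1 9 and 13 against 9 and 9, and Cd226 1 and 2 against 3 and 3. The LPM markers Icam2, Selp and Ltbp1 are adhesion genes too. Gata6, the LPM lineage factor, had 35 and 65 WT reads and 3 and 24 Rxra-KO reads. The part of either shift in the adhesion results was not tested. In bulk RNA, fewer cells of a type and less RNA per cell cannot be told apart.

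**Figure D1:**
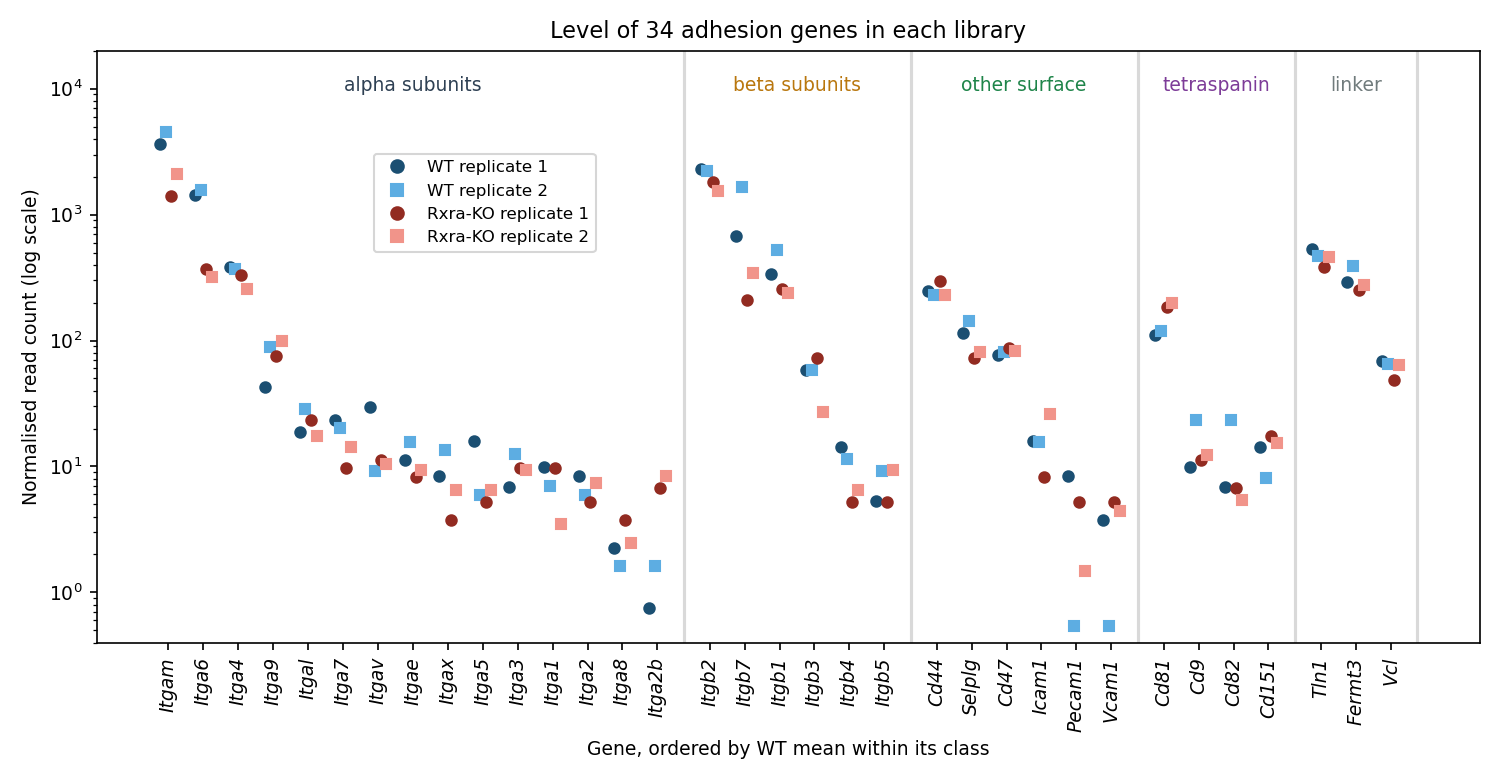
Normalised read count (log scale) of 34 adhesion genes in each library, by class. Points are single libraries, with WT in blue and Rxra-KO in red. Itgam, Itga6 and Itgb7 have both red points below both blue points by a visible gap, while Cd81 has both red points above.

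Of the 34 members, 3 were called (8.82%), against 2.29% of all 18364 genes, and all 3 were lower, against 0.969% of all genes. None was called higher, against 1.32% of all genes. The calls rested on the mean-variance trend that limma shares across genes: without it limma called 0 members and 0 of all genes, with 5 members and 1579 genes at an unadjusted p under 0.05, and after quantile normalisation 43 genes and, of the members, Itga6 alone were called. Calls went with depth. Among the 1405 genes with a mean of at least 100 reads, 13.7% were called and 6.55% were called lower, and 3 of the 10 members at that depth were called. The other 24 members had no call: 11 had a mean between 10 and 100 reads and 13 had fewer than 10. The SE of the log2 fold change had a median of 0.23 in the 10 deepest members and 0.73 in the 13 shallowest, so only large differences could pass the test in the latter. An unadjusted p under 0.05 was reached by 8 members, against 10.1% of all genes. The WT and Rxra-KO libraries did not overlap for 21 members, Rxra-KO lying below WT for 15 (19.3% of all genes) and above for 6 (18.8% of all genes). The gap was under the value of 1 read, 1.51 at most, for 3 of the 6 above (Itga8, Vcam1 and Cd151) and for 2 of the 15 below (Vcl and Cd82). The median log2 fold change was -0.35 over the members and 0.02 over all genes, and it lay below 0 for 23 members and above 0 for 11. Members together took 1.06% and 1.24% of the reads of the WT libraries, against 0.634% and 0.624% for Rxra-KO.

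**Figure D2:**
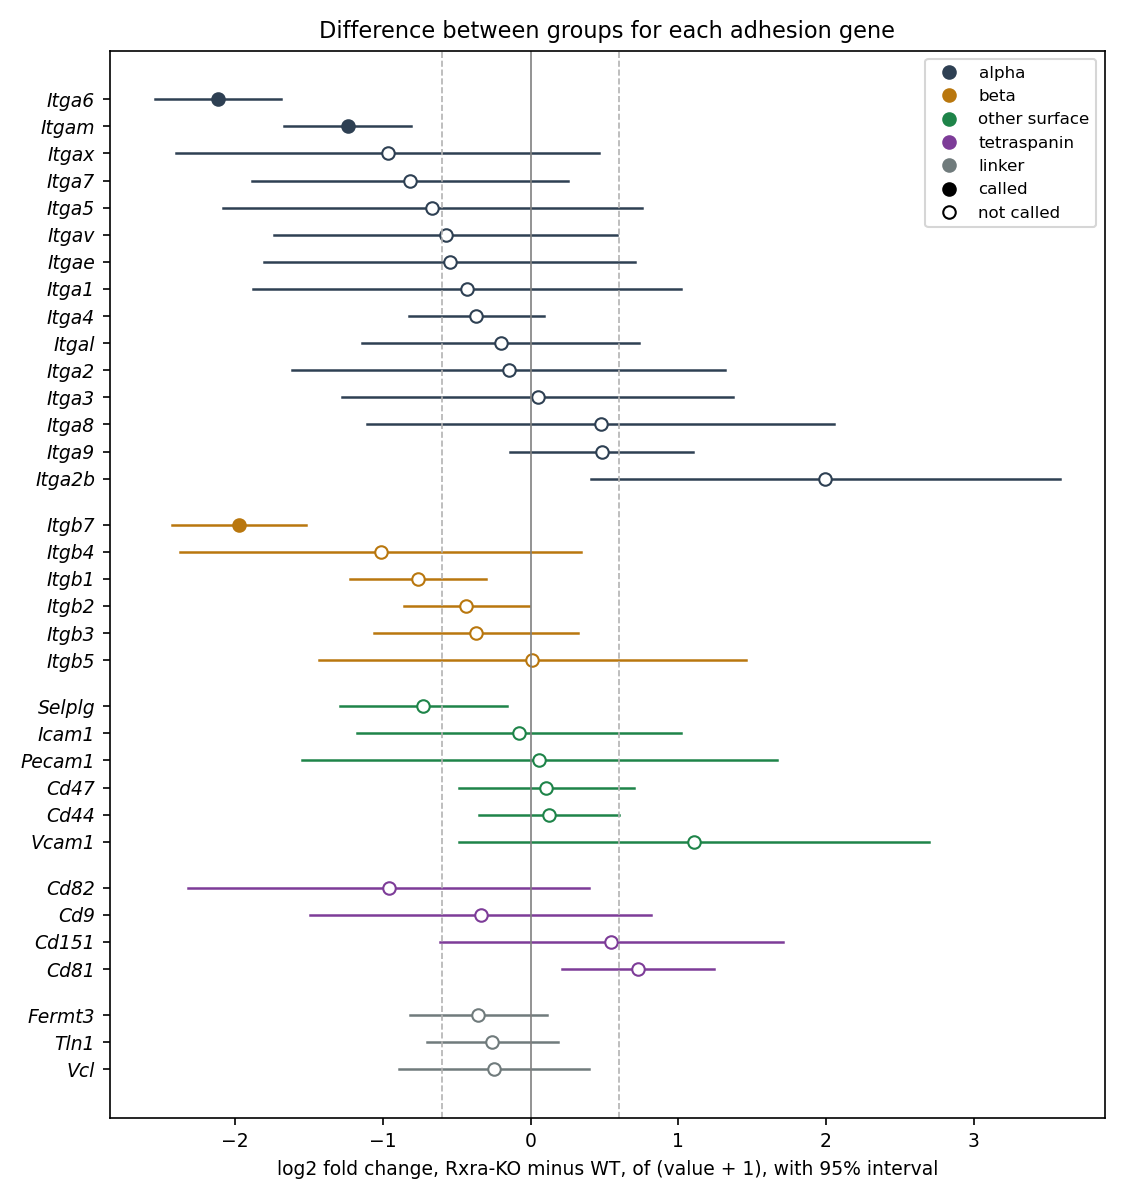
Log2 fold change of each of the 34 members, Rxra-KO minus WT, with its 95% interval from limma. Filled points are called and open points are not, dashed lines mark a log2 fold change of 0.6 in either direction, and colours mark the class. The 3 filled points are Itga6, Itgam and Itgb7, all at the left, and the widest intervals belong to genes with few reads.

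Among the alpha subunits, Itga6 and Itgam were lower in Rxra-KO. Itga6 encodes the laminin-binding alpha6 subunit, which pairs with Itgb1 or Itgb4. WT values were 1425 and 1569, from 941 and 1446 reads. Rxra-KO values were 370 and 321, from 245 and 323 reads. Both Rxra-KO libraries lay far below both WT libraries, and libraries of 1 group lay close together. The means were 1497 ± 102 and 345 ± 34.2 (SD, n = 2), which differed by -2.11 ± 0.22 on the log2 scale (SE, limma adjusted p = 3.71e-16). Leaving out any 1 library kept the call, with log2 fold changes from -2.22 to -2.01.

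Itgam encodes the alphaM subunit, CD11b, which binds complement fragment iC3b, fibrinogen and ICAM-1. WT libraries had values of 3624 and 4534, from 2393 and 4179 reads, and Rxra-KO libraries 1406 and 2102, from 933 and 2116 reads. The groups did not overlap, although libraries differed within each group, and the higher one was replicate 2 in both. Means were 4079 ± 644 and 1754 ± 493 (SD, n = 2), with a log2 fold change of -1.24 ± 0.22 (SE, limma adjusted p = 8.6e-06). In the study's gating of LPMs, CD11b protein was itself required, and the sort given for these libraries names F4/80, MHCII and CD102.

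Itga4, the alpha4 subunit that binds VCAM-1 and fibronectin, was the next most abundant alpha subunit. Its values were 384 and 370 in WT against 332 and 257. The groups did not overlap but the difference was small, -0.37 on the log2 scale with a 95% interval from -0.82 to 0.09 (limma adjusted p = 0.658). Itga9, which pairs with Itgb1 and binds tenascin and osteopontin, gave 43.2 and 88.4 in WT against 76 and 98.8. Its groups overlapped, at 0.48 with an interval from -0.14 to 1.10.

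Itga2b, the platelet alphaIIb subunit that pairs with Itgb3, had a positive difference that rested on few reads. WT libraries held 0 and 1 reads, Rxra-KO libraries 4 and 8. The ratio of summed reads was 11.4, with an exact 95% counting interval from 1.68 to 486, and the limma adjusted p was 0.269 (unadjusted 0.0138). Platelet and megakaryocyte markers had summed values of 168 and 148 in WT against 152 and 163, and limma called 0 of 12, with 1 at an unadjusted p under 0.05. Gp1bb and Treml1 of this list were at 0 in both WT libraries, but had only 1 and 4 and 2 and 4 Rxra-KO reads. Over the 12 genes, log2 fold changes lay above 0 for 5 and below 0 for 7.

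The other alpha subunits that pair with Itgb2 or Itgb7 were at few reads. Itgal, CD11a of LFA-1, had 12 and 26 reads in WT against 15 and 17. Itgax, CD11c, had 5 and 12 against 2 and 6, and Itgae, CD103, had 7 and 14 against 5 and 9. Itgax and Itgae did not overlap between the groups, but their log2 fold changes of -0.97 and -0.55 had intervals from -2.40 to 0.46 and from -1.80 to 0.71. Itgam, Itgax and Itgad are neighbours on chromosome 7 in the RefSeq table of GRCm38, and of the pair measured here only Itgam had enough reads for a narrow interval.

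The remaining alpha subunits bind collagens, laminins, fibronectin or other matrix ligands, and none was called. Itga7, a laminin receptor, had 15 and 18 reads in WT against 6 and 14, without overlap. Itgav, which pairs with several beta subunits and binds RGD-containing ligands such as vitronectin, had 19 and 8 against 7 and 10. Itga5, the fibronectin receptor, had 10 and 5 against 3 and 6. These 3 had log2 fold changes of -0.82, -0.58 and -0.67. Itga1 and Itga2 are collagen receptors and Itga3 a laminin receptor, and their log2 fold changes were -0.43, -0.15 and 0.05, each with 3 to 11 reads per library and overlapping groups. Itga8, which binds nephronectin, had 1 read in each WT library and 2 in each Rxra-KO library, under the floor throughout. Across the 15 alpha subunits the median log2 fold change was -0.43, with 2 called lower and 13 not called.

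Among beta subunits, Itgb7 was lower. It encodes beta7, which pairs with Itga4 to bind the mucosal addressin MAdCAM-1 and with Itgae to bind E-cadherin. WT libraries had values of 681 and 1653, from 449 and 1523 reads, and Rxra-KO libraries 210 and 345, from 139 and 347 reads. The groups did not overlap, but the WT libraries differed from each other more than those of the other called members. The difference was -1.97 ± 0.23 on the log2 scale (SE, n = 2 per group, limma adjusted p = 1.08e-12), from means of 1167 ± 687 and 278 ± 95.5 (SD). Its SE rests mostly on the spread shared across genes, and not on that of Itgb7 itself. Leaving out WT replicate 2 gave -1.33 and leaving out WT replicate 1 gave -2.61, both still called. DESeq2 gave -2.10 with an adjusted p of 0.0704.

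Itgb1, the partner of most alpha subunits in the list, missed the threshold by a small margin. Its values of 340 and 522 in WT did not overlap with 257 and 240 in Rxra-KO. The log2 fold change was -0.76 ± 0.23 (SE, limma adjusted p = 0.0541), with a 95% interval from -1.22 to -0.30. With edgeR on the recovered reads the adjusted p was 0.0416, and without WT replicate 1 it was 0.0269 in limma, so its side of the threshold depended on the method and on 1 library.

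Itgb2, CD18, the common beta subunit of the leukocyte integrins, had WT values of 2319 and 2212 and Rxra-KO values of 1821 and 1541. The groups did not overlap and libraries lay close within each group. The log2 fold change was -0.44 ± 0.22 (SE, limma adjusted p = 0.472, unadjusted 0.0442). Itgb2l, a close paralog that can share reads with Itgb2, had 6 and 10 WT reads and 9 and 12 Rxra-KO reads, few beside those of Itgb2.

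The other beta subunits were at few reads and were not called. Itgb3, the partner of Itgav and Itga2b, had 38 and 53 reads in WT against 48 and 27, with overlapping groups. Itgb4, the epithelial partner of Itga6, had 9 and 10 against 3 and 6 reads, which did not overlap, and Itgb5, a partner of Itgav, had 3 and 8 against 3 and 9. Over the 6 beta subunits the median log2 fold change was -0.60, with 1 called lower and 5 not called.

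Integrins act as pairs, so partner genes were compared by the log2 ratio of their values in each library. The Itga6 to Itgb1 ratio was 2.07 and 1.59 in WT against 0.52 and 0.42, a difference of -1.35. By this measure Itga6 was further below WT than its partner. The Itgam to Itgb2 ratio was 0.64 and 1.03 in WT against -0.37 and 0.45, a difference of -0.80 in the same direction. The Itga4 to Itgb7 ratio went the other way, from -0.82 and -2.15 to 0.66 and -0.43, a difference of 1.61. These 3 ratios did not overlap between groups. The Itga4 to Itgb1 ratio differed by 0.39 and the Itgal to Itgb2 ratio by 0.23, and both overlapped. Each of the first 3 gave an exact two-sided permutation p of 0.333, which is the smallest that 2 libraries against 2 allow, and the other two gave 0.667 and 1. A ratio shows unequal change and not which partner is limiting at the protein level.

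Levels per kilobase of transcript were compared between genes, with 1 mouse transcript for each gene. The order can change with reads over other isoforms, and which reference gave the reads was not settled. In WT, Itgam had the highest mean level of the integrin genes at 1102, followed by Itgb2 at 763, Itgb7 at 435 and Itga6 at 360. In Rxra-KO, Itgb2 was at 566, Itgam at 474, Itgb7 at 103 and Itga6 at 83.1. Itgb2 and Itgam thus stood in the other order by their means, but in Rxra-KO replicate 2 Itgam was still above Itgb2. Itgb7 and Itga6 had no fixed order. Itgb7 was below Itga6 in replicate 1 of both groups, at 254 against 343 in WT and 78.3 against 88.9 in Rxra-KO, and above it in replicate 2 of both, at 616 against 378 and 129 against 77.3. The summed alpha level was 1395 and 1680 in WT against 533 and 706, and the summed beta level was 1138 and 1513 against 774 and 719. Both sums were lower in each Rxra-KO library than in either WT library.

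As shares of these sums, Itgam made up 71.6% ± 1.93 of the alpha level in WT against 75.8% ± 6.51 (SD, n = 2), with overlapping libraries. Itga6 took 23.5% ± 1.49 in WT against 13.8% ± 4.05. Among beta subunits, Itgb2 took 58.9% ± 13.7 in WT against 75.7% ± 5.01, and Itgb7 31.5% ± 13.0 and 14.0% ± 5.50. Itgb1 held 8.44% ± 0.862 and 8.72% ± 0.0335. The Itga6, Itgb2 and Itgb7 shares did not overlap between groups, and these shares are descriptions without a test.

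**Figure D3:**
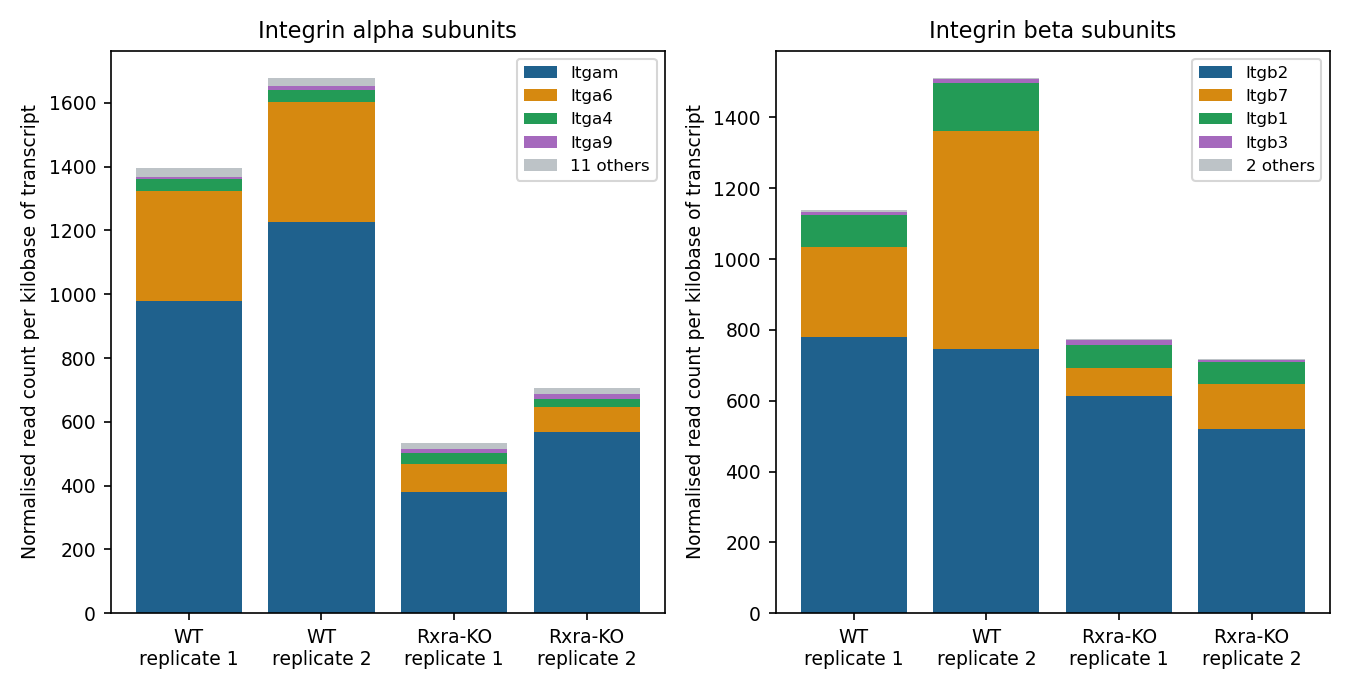
Normalised read count per kilobase of transcript in each library, stacked by gene, for the alpha subunits (left) and the beta subunits (right). The Itga6 and Itgb7 segments are thinner in both Rxra-KO bars than in either WT bar, while the Itgb2 segment changes less.

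The other surface molecules include counter-receptors of integrins and receptors for matrix and carbohydrate, and limma called 0 of 6, with 1 at an unadjusted p under 0.05. Selplg, PSGL-1, the main ligand of P-selectin, was that 1, with values of 114 and 143 in WT against 73 and 80.9, without overlap. The difference was -0.72 ± 0.29 (SE, limma adjusted p = 0.252, unadjusted 0.0121). Cd44, the hyaluronan receptor, had 248 and 232 against 296 and 231, and its 95% interval ran from -0.35 to 0.60. Cd47, the ligand of SIRPα that restrains phagocytosis, had 76.5 and 80.8 against 86.6 and 82.9, with an interval from -0.49 to 0.70.

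Genes for the integrin ligands among the members, and Pecam1, were at few reads. Icam1, a ligand of Itgal-Itgb2 and Itgam-Itgb2, had 10 and 14 reads in WT against 5 and 26. Vcam1, a ligand of Itga4-Itgb1, had 2 and 0 against 3 and 4. Pecam1, an adhesion molecule of endothelium and leukocytes, had 5 and 0 against 3 and 1. The ratio of summed reads was 3.31 for Vcam1 with a counting interval from 0.631 to 32.7, and 0.757 for Pecam1 with one from 0.150 to 3.52. No direction can be read from these 3 genes. Over the 6 surface molecules the median log2 fold change was 0.08.

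Of the 4 tetraspanins limma called 0, with 1 at an unadjusted p under 0.05. Cd81, a partner of several integrins in macrophages and lymphocytes, had values of 111 and 120 in WT against 184 and 200. Both Rxra-KO libraries lay above both WT libraries, with little spread in either group. The log2 fold change of 0.73 ± 0.26 (SE, n = 2 per group) had a 95% interval from 0.21 to 1.24 and a limma adjusted p of 0.159 (unadjusted 0.00575), so it was not called. Cd151, which binds laminin-binding integrins such as alpha6, had 9 and 7 reads against 11 and 15. Cd9 had 6 and 21 against 7 and 12, and Cd82 had 4 and 21 against 4 and 5, with WT replicate 2 highest for both. Cd9 and Cd82 are tetraspanins that act in cell fusion and migration. The median over the 4 was 0.10.

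The 3 linkers had small negative differences, with 0 called by limma and 0 at an unadjusted p under 0.05. Tln1, talin, which binds beta tails and activates integrins, had values of 535 and 472 in WT against 380 and 464. Fermt3, kindlin-3, the kindlin of blood cells, had 290 and 391 against 254 and 274. Vcl, vinculin, had 68.9 and 64.5 against 48.9 and 64.1. Rxra-KO lay below WT without overlap for all 3, as it did for 19.3% of all genes, and for Vcl by less than 1 read. Their log2 fold changes of -0.26, -0.35 and -0.25 had SEs of 0.22, 0.23 and 0.33, and limma adjusted p ran from 0.688 to 0.915. Their 95% intervals ended at 0.18, 0.11 and 0.40, and began at -0.70, -0.82 and -0.89.

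Further genes of the adhesion pathway were taken from lists of 123 genes that are not members, of which 116 were in the table. Of these, 9 were called (7.76%), 5 higher and 4 lower, against 2.29% of all genes. Their median log2 fold change was 0.11. Other integrin subunits gave 0 of 4, with 0 at an unadjusted p under 0.05. Ligands and matrix proteins gave 5 of 28, integrin adaptors and signalling proteins 1 of 40, other tetraspanins and partners 1 of 23, and selectins and other adhesion receptors 2 of 21. Without WT replicate 2, 5 of the 116 were called in place of 9.

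The genes called lower were Ltbp1, which anchors latent TGFβ in matrix, Thbs1, the matrix glycoprotein thrombospondin-1 that binds CD47, Selp, P-selectin, and Icam2, the LFA-1 ligand CD102. Ltbp1 had values of 1816 and 1952 in WT against 469 and 338, which is -2.24 on the log2 scale (limma adjusted p = 6.04e-18). Selp had 1062 and 1205 against 400 and 462, and Icam2 had 1092 and 1301 against 466 and 539, with log2 fold changes of -1.39 and -1.25. Thbs1 had 369 and 301 against 138 and 55.1, at -1.92. Rxra-KO lay below WT without overlap for these 4, as it did for 19.3% of all genes. CD102 protein was used in the sort, and Ltbp1, Selp and Icam2 also stand in the LPM marker list given above.

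The genes called higher were Lyve1, a hyaluronan receptor, Tns1, tensin-1 of focal adhesions, Tspan3, a tetraspanin, Jam2, a junctional adhesion molecule that can bind Itga4-Itgb1, and Tgfbi, a matrix protein that binds integrins. Lyve1 had values of 79.5 and 11.4 in WT against 1109 and 846, which is 4.94 on the log2 scale (limma adjusted p = 2.74e-40). It also stands in the list of small peritoneal and monocyte-derived markers. Tns1 had 44.7 and 13.6 against 127 and 79, and Tspan3 had 170 and 73.2 against 306 and 357. For both, WT replicate 1 was above WT replicate 2, and without WT replicate 2 the log2 fold change of Tns1 was 1.15 (adjusted p = 0.122) and that of Tspan3 was 0.95 (adjusted p = 0.113). Tns1 also lost its call without Rxra-KO replicate 1. Jam2 had 20.4 and 21.2 against 42.9 and 73, and Tgfbi had 1032 and 551 against 1094 and 1499. Jam2 lost its call when any 1 library was left out, and Tgfbi when WT replicate 2 or Rxra-KO replicate 2 was.

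**Figure D4:**
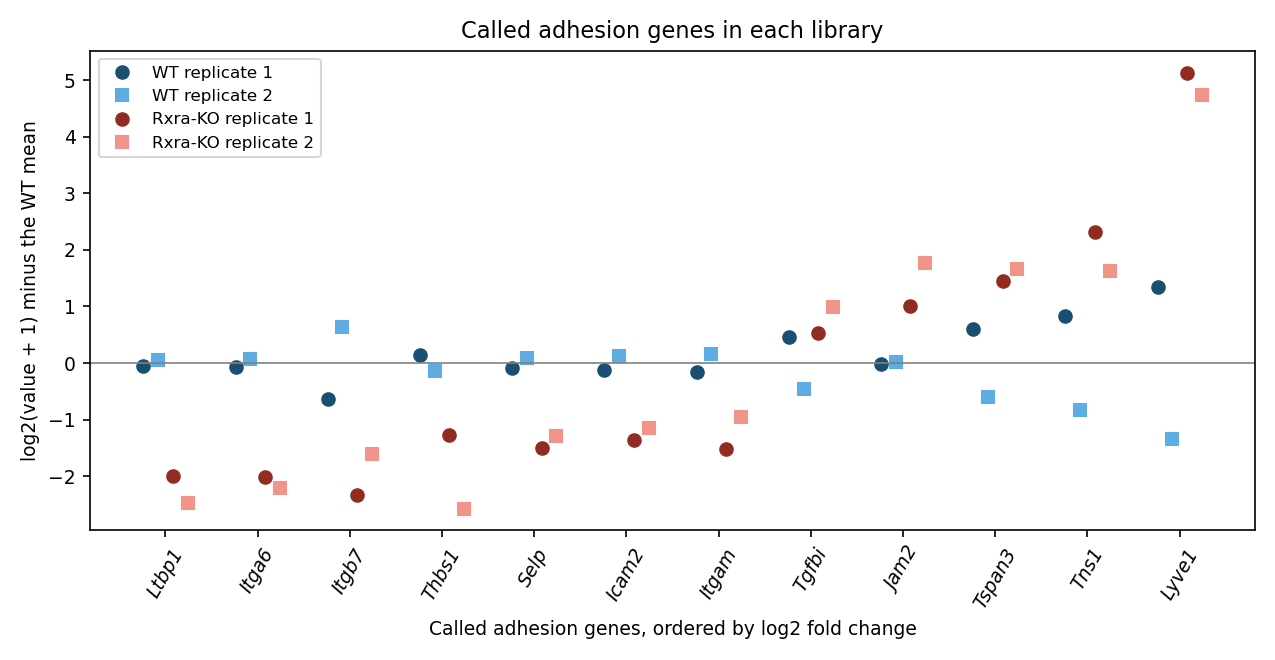
Log2(value + 1) minus the WT mean in each library for the 3 called members and the 9 other called adhesion genes, ordered by log2 fold change. Both Rxra-KO points lie below both WT points from Ltbp1 to Itgam and above them from Tgfbi to Lyve1, with the widest WT spread for Lyve1.

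Of the markers of small peritoneal and monocyte-derived macrophages, cells that can carry integrin transcripts too, 12 of 15 were called higher in Rxra-KO as given above. For other cells, summed marker values were 47.2 to 62.5 over 7 B cell genes and 69.6 to 103 over 10 dendritic cell genes. They were 22.8 to 43.7 over 8 mast cell and eosinophil genes and 58.6 to 78.7 over 8 endothelial genes. The 8 T and NK cell genes summed to 132 and 126 in WT against 108 and 81.4 in Rxra-KO. Their log2 fold changes lay above 0 for 3 and below 0 for 5. The 10 mesothelial and fibroblast genes gave 111 and 140 against 105 and 105. The 5 neutrophil genes gave 17.4 and 21.2 against 27.9 and 29.3. The neutrophil list named 10 genes and the mesothelial and fibroblast list 14, so part of each could not be read. Of the 56 genes read for these cells 1 was called, Cd247, which was lower, against 2.29% of all genes called. Cd247 had 9 and 20 WT reads and 1 and 2 Rxra-KO reads. Most of the 56 had a mean under 10 reads, where only large differences could pass the test. Ccr3 of eosinophils and Upk3b of mesothelium were at 0 in both WT libraries, but had only 3 and 3 and 1 and 5 Rxra-KO reads. Of the 8 mast cell and eosinophil genes, log2 fold changes lay above 0 for 3 and below 0 for 5. Of the 10 mesothelial and fibroblast genes, they lay above 0 for 6 and below 0 for 4. The part of any of these cells in the adhesion results was not tested.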

How the data were processed

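Double-sorted LPMs gave 4 RNA-seq libraries, made by the authors with the SMART-Seq v4 low-input kit, which has no molecular identifiers and does not mark strand. The authors quantified transcripts with kallisto 0.43.0 (named with limma in the submitters' processing notes) and applied TMM scaling. The deposited signal is a normalised read count for each gene and library. Each value equals (reads + 0.5) divided by the scaled library size, so whole reads were recovered, and 100% of values came out whole within 0.001. The methods and the notes name GRCh38, a human build, for these mouse libraries, and which reference gave the reads was not settled. The table holds mouse symbols without coordinates. Duplicated symbols numbered 4 and none was in a list.

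Replicates were numbered by the sample titles. Each gene was fitted with limma 3.58.1 (R 4.3.3) with a mean-variance trend on log2(value + 1) over all 4 libraries, without covariates. P-values are two-sided and were adjusted by Benjamini-Hochberg across all 18364 genes. A value of at least 1 in 2 libraries was required, which removed 0 genes. Adding 1 understates the fold of low genes. Prior degrees of freedom were 227 against 2 residual ones, so each p rests mostly on the spread shared across genes. Levels per kilobase used the GENCODE transcript with the longest coding sequence, and reads over other isoforms can change their order. Read intervals and the floor of 3 reads cover counting error only. Alternatives used edgeR 4.0.16, DESeq2 1.42.0, other scalings and other limma settings. Every member was named, with values in each library for the called, the most abundant and their integrin partners. Members, lists and naming rules were chosen with earlier results of these data known. Scripts were tested on simulated data.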

Additional observations from a re-analysis of the deposited data

How the results depend on the processing

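With 2 libraries per group, members below about 10 reads cannot show a change short of several fold, and calls rest on variance shared across genes. Itga6 was called under every alternative except limma without the trend, with and without a higher filter. Itgam and Itgb7 were also not called after quantile normalisation, and Itgb7 not with DESeq2. Called members numbered 1 after quantile normalisation (adjusted p of 0.150 for Itgam and 0.164 for Itgb7) and 0 in limma without the trend, where 5 members had an unadjusted p under 0.05 and Itga6 an adjusted p of 0.429. In these fits the prior degrees of freedom were 4.92 and 3.98. All genes called numbered 43 and 0 (1579 at an unadjusted p under 0.05), and other pathway genes 3 and 0 (16 at an unadjusted p under 0.05). A limma fit without the trend on values of at least 10, chosen after seeing the data, called 0 of 23 members, 26 of all genes and 0 of 82 pathway genes, with 4 members, 1137 genes and 14 pathway genes at an unadjusted p under 0.05. DESeq2 called 235 genes and, without independent filtering, also chosen after seeing the data, 191. Leaving out 1 library gave 3 to 4 members, 236 to 377 of all genes (236 without WT replicate 2 and 244 without Rxra-KO replicate 1, of 421) and 5 to 9 pathway genes.

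Same-numbered libraries deviated together only weakly (r = 0.0629 over 10049 genes). This correlation cannot show whether they shared a litter, a day or a batch, which the labels do not state. With the number as a replicate block 4 members were called, with Itgb1 added (adjusted p = 0.00659), 540 of all genes and 12 pathway genes. Itgb1 also passed with DESeq2 size factors, voom, edgeR and without WT replicate 1.

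Signs changed only for members without a call. Pecam1 was -0.074 at a pseudocount of 5 and -0.42 with edgeR, Itgb5 -0.0081 with DESeq2 size factors and -0.030 after quantile normalisation, Itga3 -0.0098 with voom and -0.042 with edgeR, and Icam1 0.047 with voom, 0.21 with edgeR and 0.14 with DESeq2. Leaving out 1 library moved the log2 fold change of Itga2 from -0.36 to 0.068, of Itga3 from -0.34 to 0.44, of Itga9 from -0.028 to 0.99, of Itgav from -1.36 to 0.21, of Itgb5 from -0.36 to 0.38, of Itgal from -0.49 to 0.086, of Pecam1 from -1.24 to 1.36, of Cd9 from -0.92 to 0.24, of Icam1 from -0.86 to 0.70, of Cd44 from -0.052 to 0.30, of Itga1 from -1.06 to 0.21 and of Itgb3 from -1.06 to 0.32. Dropping the filter changed nothing, since it removed 0 genes. The cause of these changes was not tested.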
